A study of Homo sapiens with 102 samples.

Results

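The peroxide and thiol redox genes measured here were the peroxiredoxins PRDX1, PRDX2, PRDX4, PRDX5 and PRDX6, thioredoxin (TXN), superoxide dismutase 1 (SOD1), glutathione S-transferase pi (GSTP1) and the glutathione peroxidases GPX1 and GPX4. They were chosen by symbol and matched by Ensembl identifier, and all 10 were found among the 24965 genes of the count table. The measured values did not enter the choice of the 10 symbols, but the theme was proposed with earlier results of these data known.

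The data came from Combi-Seq, in which single cells and pairs of drugs are enclosed in picolitre droplets and each drug brings a barcode fragment. The joined barcode primes reverse transcription on poly(A) tails, so that pooled reads can be sorted by drug pair. All 102 libraries were made from K562, an established chronic myeloid leukaemia line with the BCR-ABL fusion gene, after 12 h in droplets. Every ordered pair of DMSO (the solvent), imatinib (which blocks the BCR-ABL kinase), trametinib (a MEK inhibitor) and YM115 was measured in 3 runs of each of 2 screens, called dT and Bio, the second with exchanged barcodes. The labels write YM115 where the study writes YM155, a compound that lowers survivin expression. They give no doses. Pairs are written first-listed_second-listed, a pair such as Imatinib_Imatinib holds 2 portions of 1 drug, and DMSO_DMSO holds solvent alone. A further 3 DMSO controls per screen carry no pair in their titles and are called separate controls. How their preparation differed from that of the pairs is not given in the sources used here. The study describes the runs of a drug pair as independent biological experiments, while the labels do not say which steps were separate.

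Peroxiredoxins reduce hydrogen peroxide through a reactive cysteine and are returned to the reduced state by thioredoxin. PRDX4 works in the endoplasmic reticulum, PRDX5 in mitochondria, peroxisomes and the cytosol, and PRDX6 draws on glutathione in place of thioredoxin. SOD1 turns superoxide into hydrogen peroxide. GPX1 and GPX4 are selenoproteins that use glutathione to reduce hydrogen peroxide and lipid hydroperoxides, respectively, and GSTP1 couples glutathione to electrophiles. Red blood cells are rich in peroxiredoxins, PRDX2 above all, and K562 is an erythroid-like line.

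In-screen dT libraries held 127042 to 759756 counts (median 350752.5), and Bio libraries held 17882 to 780143 (median 231438.5). All 48 in-screen dT libraries and 44 of the 48 Bio libraries passed the filter of at least 1000 detected genes and at most 15% mitochondrial counts. The 4 left out were the 3 Bio Imatinib_Imatinib libraries and Bio DMSO_Trametinib of run 1. The separate controls were sequenced to 256671 to 458945 counts (dT) and 35742 to 89347 counts (Bio). They detected 7410 to 10361 and 5501 to 7058 genes, whereas in-screen DMSO_DMSO libraries detected 2639 to 2967 (dT) and 1071 to 1538 (Bio). Mitochondrial counts reached 36.9% in the separate dT controls and 28.1% in the separate Bio controls. In-screen libraries held at most 7.34% in dT and 6.87% in Bio. The separate controls of run 1 held 10.2% (dT) and 5.1% (Bio), and those of runs 2 and 3 exceeded the 15% limit. The filter was not applied to the separate controls. Of 9 erythroleukaemia markers all had counts, led by the fetal globin HBG2 with a median of 29709 CPM (counts per 1e+06 counts of the library), whereas the summed lymphoid markers had a median of 0 CPM.

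GSTP1, GPX4 and PRDX5 were the members that the in-screen libraries counted widely. GSTP1 had counts in all 48 dT and all 44 Bio libraries that passed. Its level was 5706 ± 1629 CPM in dT (SD, n = 48) and 5177 ± 2916 CPM in Bio (SD, n = 44), with medians of 5798 and 4416 CPM. GPX4 had counts in 48 of 48 dT and 39 of 44 Bio libraries, at 997 ± 472 and 1009 ± 935 CPM (SD, n = 48 and 44). PRDX5 had counts in 47 of 48 dT and 34 of 44 Bio libraries, at 613 ± 641 and 594 ± 926 CPM. For each of the 3 genes the means of the screens were close, while the spread over libraries was wider in Bio.

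The other 7 members were sparse. PRDX4 was counted in 24 of 48 dT and 10 of 44 Bio libraries, PRDX6 in 23 and 6, PRDX2 in 18 and 3, TXN in 12 and 12, PRDX1 in 9 and 8, SOD1 in 7 and 3, and GPX1 in 1 and 0. When a sparse member was counted, its reads were often concentrated in 1 library. PRDX2 had 267 of its 480 reads in Bio Trametinib_Trametinib of run 1, and PRDX4 had 765 of its 2698 reads in Bio YM115_Imatinib of run 1. PRDX1 never exceeded 10 counts in an in-screen dT library, and the largest of its Bio counts was 60, in YM115_DMSO of run 1. SOD1 reached 53 counts in dT Trametinib_DMSO of run 1 and at most 5 counts in an in-screen Bio library. GPX1 had a single read in the whole series, in dT YM115_DMSO of run 1. A count of 0 still allows a level of up to 3 counts, which is on average 16.3 CPM in the dT and 27.7 CPM in the Bio DMSO_DMSO libraries, and these limits cover counting error only.

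The library preparation described by the study includes digestion with MseI, a restriction enzyme that cuts DNA at TTAA, to release the cDNA from streptavidin beads. The transcripts of the members differ in how many such sites they hold, counted in the principal coding transcript of GENCODE release 29. GSTP1 holds 0, PRDX5, GPX4 and GPX1 hold 1 each, PRDX2 holds 2, PRDX4 holds 3, PRDX1 holds 5, TXN and SOD1 hold 10 each and PRDX6 holds 11. The windows below show the site nearest the 3′ end in 3 members with many sites and in both counted members with 1 site. Each reads 5′ to 3′ along the transcript, with the MseI site in capitals.
PRDX1: tttgtagtttgtaTTAAacttgaactgaga
TXN: tattattgctaccTTAAtgtattgctacaa
SOD1: tattatgaggctaTTAAaagaatccaaatt
PRDX5: gcctgtctgagtgTTAAtgatgcctttgtg
GPX4: gacgggcacatggTTAAcctggacaagtac
The first 3 sites lie in 3′ UTR exons, beginning 32, 70 and 26 bases from the end of the transcript, and the last 2 lie in coding exons, 383 and 646 bases from the end. On GRCh38 the windows are at chr1:45511051-45511080 (minus strand), chr9:110243864-110243893 (minus strand), chr21:31668893-31668922 (plus strand), chr11:64320724-64320753 (plus strand) and chr19:1105249-1105278 (plus strand).

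Each member with 5 or more sites was counted in a larger share of the separate controls than of the in-screen libraries of its screen. PRDX1 was counted in 18.8% of the in-screen dT libraries and 100% of the separate dT controls, SOD1 in 14.6% and 100%, TXN in 25% and 100%, and PRDX6 in 47.9% and 100%. In Bio the same shares were 18.2% and 100% for PRDX1, 6.82% and 33.3% for SOD1, 27.3% and 66.7% for TXN, and 13.6% and 100% for PRDX6. PRDX4, with 3 sites, differed in the same direction, at 50% and 66.7% in dT and 22.7% and 100% in Bio, as did PRDX5 and GPX4 in Bio, with 1 site each, at 77.3% and 88.6% in-screen and 100% in the controls. GSTP1, without a site, was counted in 100% of the libraries of all 4 kinds. GPX1, with 1 site, had no count in the separate controls and was counted in 2.08% of the in-screen dT libraries. PRDX2, with 2 sites, was counted in 33.3% of the separate controls of either screen. Its in-screen shares were 37.5% in dT, which is higher than in the controls, and 6.82% in Bio. The separate controls differ from the in-screen libraries in depth, detected genes and mitochondrial share, and whether they were digested in the same way is not given in the sources used here, so the part of MseI digestion in these values was not tested.

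**Figure D1:**
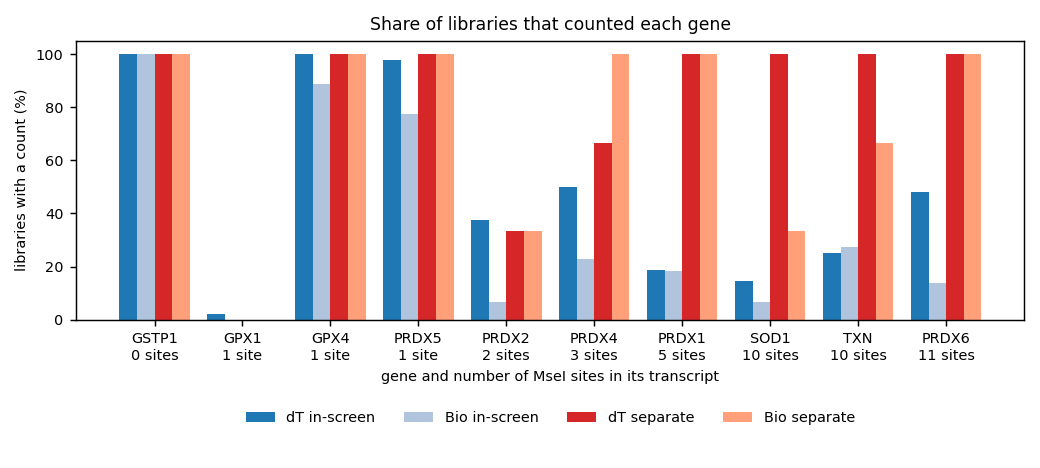
Percent of libraries in which each member had at least 1 count (vertical axis, from 0), with members ordered by the number of MseI sites in their principal transcript (horizontal axis). Bars stand for in-screen dT (n = 48) and Bio libraries (n = 44) that passed the filter and for the separate dT and Bio controls (n = 3 each). The 4 members with 5 or more sites have in-screen bars of at most 47.9% and dT control bars at 100%.

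Over all genes, the share counted in the in-screen libraries was lower where there were more sites. Among protein-coding genes whose transcripts were as long as those of the members (869 to 1751 bases), 27.7% of the 376 genes without a site were counted in 50% or more of the in-screen dT libraries. This share was 24.4% of 463 genes with 1 site, 17.7% of 729 with 2 to 4 sites, 11.4% of 481 with 5 to 9 sites and 6.45% of 186 with 10 or more. In Bio it fell from 16.5% to 1.61%. In the separate dT controls it did not follow that order, at 46%, 47.9%, 49.8%, 46.8% and 41.9% over the same classes. In the separate Bio controls it was 38%, 34.6%, 33.3%, 26.6% and 22%. For the separate controls the 50% rule means at least 2 of 3 libraries. These controls also detected more genes, in dT 7410 to 10361 against 1837 to 5110 in-screen. The shares of the 2 kinds of library are therefore not on the same scale. GC content and length moved with the number of sites, from a median of 62.6% and 1240.5 bases at 0 sites to 41.6% and 1530 bases at 10 or more, and their part was not tested. Transcripts without a site supplied 20.4 to 30.8% of the protein-coding counts of an in-screen dT library and 13.8 to 22.1% in the separate dT controls, so these ranges overlap. In Bio the ranges were 19.2 to 33.9% and 15.5 to 17.9%, which do not overlap. The share from transcripts with 5 or more sites overlapped in both screens, at 34 to 45.5% in-screen and 39.5 to 46.5% in the separate controls for dT, and at 28.4 to 52.2% and 43.6 to 47.4% for Bio.

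**Figure D2:**
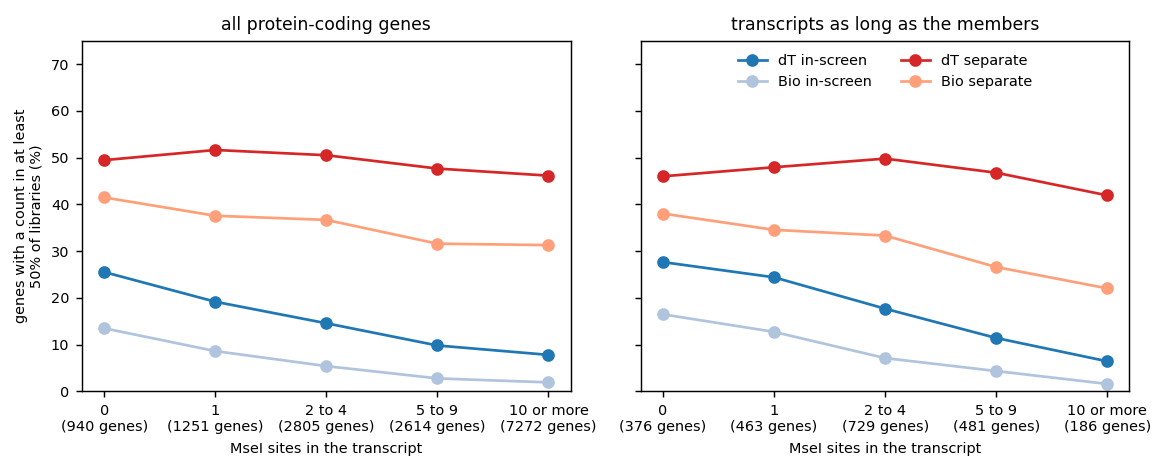
Percent of genes counted in 50% or more of the libraries (vertical axis) by the number of MseI sites in the principal transcript (horizontal axis, with the number of genes in each class), for all protein-coding genes (left) and for transcripts as long as the members (right). Points are shares for each kind of library, and the in-screen lines fall from 27.7% to 6.45% (dT) and from 16.5% to 1.61% (Bio) on the right.

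GSTP1 was followed across the drug pairs. In dT DMSO_DMSO it stood at 4956, 5425 and 1079 CPM in runs 1 to 3, so that 1 solvent library was far below the others. Trametinib_Trametinib gave 3025, 4380 and 3785 CPM, the lowest condition mean of the dT screen (3730 ± 679 CPM, SD, n = 3). YM115_YM115 gave 6938, 7301 and 6719 CPM, and Imatinib_Imatinib gave 6277, 7543 and 6475 CPM. The runs of both of these pairs lay above those of Trametinib_Trametinib and of DMSO_DMSO. The highest condition mean of that screen was YM115_Imatinib, with 7970, 5507 and 8787 CPM.

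In Bio the order was different. DMSO_DMSO held the highest condition mean of GSTP1, with 8473, 8933 and 8557 CPM, and YM115_YM115 gave 6450, 5487 and 4715 CPM. The lowest passing Bio library of GSTP1 was Imatinib_YM115 of run 2 at 517 CPM, and the highest was Imatinib_DMSO of run 1 at 12584 CPM. Over the 16 ordered pairs sorted by their mean over all in-screen libraries, passing or not, 0 of the 15 neighbouring pairs had ranges apart in either screen, and this held for each of the 10 members. Conditions farther from each other in the order could have ranges apart, as YM115_YM115 and DMSO_DMSO had for GSTP1 in dT. The highest and lowest conditions did not overlap for GSTP1 in both screens and for GPX4 and PRDX5 in dT, which is a comparison of extremes and carries no test. For GSTP1 in Bio the lowest condition was Imatinib_Imatinib (0 to 4474 CPM), of which 0 libraries passed. The next, Trametinib_DMSO, had 3 passing libraries at 1210 to 4372 CPM, also below the range of DMSO_DMSO.

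The 5 dT conditions with the highest mean of GPX4 all held imatinib, while Trametinib_Imatinib and Imatinib_YM115 ranked 8 and 12 of 16. The 3 Imatinib_Imatinib libraries held GPX4 at 1661, 1694 and 1134 CPM and the Imatinib_Trametinib libraries held 1679, 1218 and 1562 CPM. In dT DMSO_DMSO it stood at 1464, 407 and 570 CPM, a spread that reached into the imatinib values. The lowest dT condition was DMSO_Trametinib, with 353, 1017 and 82.4 CPM. In Bio, GPX4 was listed at 0 in DMSO_DMSO of run 2 and at 3584 and 3068 CPM in the other runs of the same pair, so that the solvent libraries alone covered the whole range of the screen.

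PRDX5 had the widest spread relative to its mean among the 3 widely counted members. In dT it ranged from 0 CPM (Imatinib_DMSO, run 1) to 2670 CPM (DMSO_YM115, run 1), and the DMSO_DMSO libraries held 682, 2271 and 45.4 CPM. YM115_YM115 gave 220, 255 and 128 CPM and Trametinib_Trametinib gave 79.4, 256 and 364 CPM, below 2 of the 3 solvent libraries. In Bio it ranged from 0 to 4856 CPM (YM115_Trametinib, run 1), and DMSO_DMSO held 8.7, 149 and 257 CPM.

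**Figure D3:**
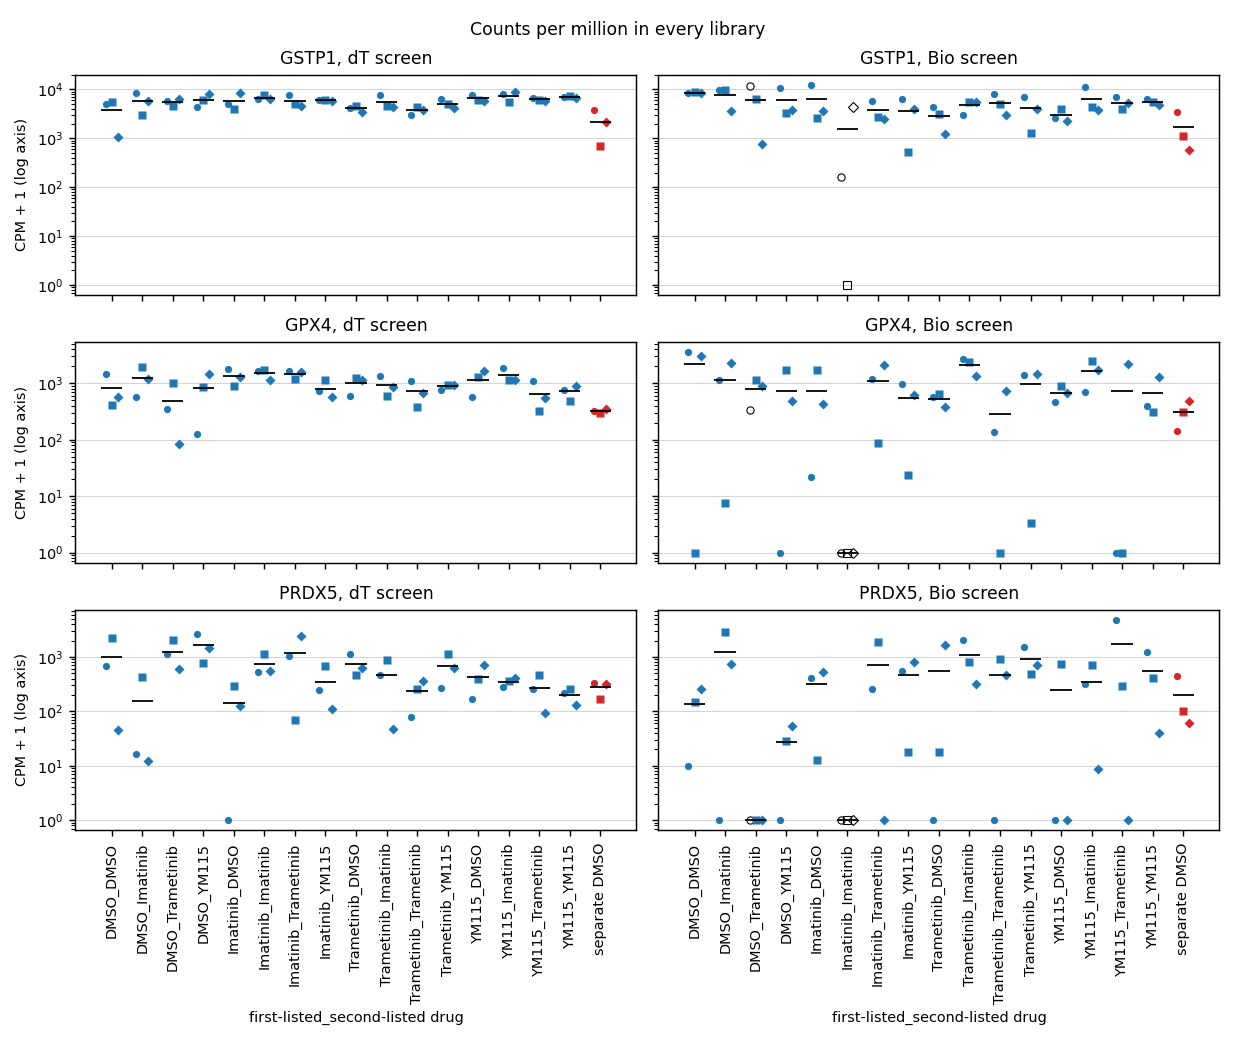
CPM plus 1 on a log axis for GSTP1, GPX4 and PRDX5 in every library of the dT (left) and Bio (right) screens, by ordered drug pair. Circles, squares and diamonds are runs 1, 2 and 3, bars are condition means, open symbols are the Bio libraries that did not pass the filter and red symbols are the separate controls. GSTP1 stays between 1079 and 8787 CPM in the in-screen dT libraries, and the separate dT control of run 2 lies lower, at 686 CPM. GPX4 and PRDX5 reach 0 in Bio, and PRDX5 also does in dT. GSTP1 reaches 0 in Bio Imatinib_Imatinib of run 2, which did not pass the filter.

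The question of the screen was how each drug, alone or in a pair, altered expression. Drug terms were fitted over all genes of a screen with edgeR's quasi-likelihood test and Benjamini-Hochberg adjustment, with run as a block and a drug counted as present in either position. In dT, 5 members passed the filter on low counts (PRDX4, PRDX5, PRDX6, GSTP1 and GPX4), and 0 of 5 were called for imatinib, against 2.88% of all genes tested. Likewise 0 of 5 were called for trametinib (1.37% of all genes) and 0 of 5 for YM115 (2.62%). At an unadjusted p under 0.05 by edgeR there were 2 members for imatinib, 0 for trametinib and 1 for YM115. Of all 3930 genes tested in dT, 546, 497 and 561 were below that level for the 3 drugs. In Bio, 4 members could be tested (PRDX5, TXN, GSTP1 and GPX4), and 0 of 4 were called for imatinib (2.34% of all genes), trametinib (1.94%) or YM115 (2.74%), and 0 members were below an unadjusted p of 0.05 for any of the 3. Of all 1754 genes tested in Bio, 263, 218 and 280 were below it. Each library pools the RNA of many cells, so fewer cells with a transcript and less of it per cell cannot be told apart.

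GSTP1 averaged 6152 ± 1648 CPM in the 21 dT libraries with imatinib and 5359 ± 1557 CPM in the 27 without (SD). The fitted log2 fold change was 0.37 (SE 0.14, adjusted p = 0.181 by edgeR's quasi-likelihood test). The drug with the largest estimate for GSTP1 in dT was YM115, with 6347 ± 1176 CPM in 21 libraries and 5208 ± 1773 CPM in 27 without it. That log2 fold change was 0.42 (SE 0.14, adjusted p = 0.0974 by edgeR), and GSTP1 was higher with YM115 in 3 of 3 dT runs and 1 of 3 Bio runs. The corresponding Bio estimate for YM115 was -0.34 (SE 0.27, adjusted p = 0.579 by edgeR).

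With trametinib, GSTP1 averaged 5141 ± 1286 CPM in 21 dT libraries against 6145 ± 1751 CPM in 27. In Bio the means were 4295 ± 2088 CPM (n = 20) and 5912 ± 3324 CPM (n = 24), and the mean was lower with trametinib in 3 of 3 runs of both screens. The fitted log2 fold change was 0.0019 in dT (95% interval -0.27 to 0.27) and -0.50 in Bio (SE 0.26, adjusted p = 0.443 by edgeR), so the lower CPM in dT did not appear on the TMM scale of the fit. The median fitted change over all genes tested in dT was 0.067 for imatinib, 0.23 for trametinib and 0.21 for YM115. In Bio the same medians were 0.12, 0.30 and 0.53, and the members' estimates are to be read relative to those shifts.

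GPX4 averaged 1241 ± 435 CPM with imatinib (n = 21) and 807 ± 415 CPM without (n = 27) in dT. It was higher with imatinib in 3 of 3 runs of both screens. The log2 fold change was 0.64 in dT (SE 0.29, adjusted p = 0.281 by edgeR) and 0.51 in Bio (SE 0.79, adjusted p = 0.86 by edgeR). Under DESeq2, which tested with its own scaling, GPX4 passed for imatinib in dT (log2 fold change 0.83, adjusted p = 0.0305), as did GSTP1 for imatinib (0.55, adjusted p = 0.0123) and for YM115 (0.48, adjusted p = 0.0371). DESeq2 called 2160 genes for imatinib in dT where edgeR called 113, and these 3 calls were made by that tool alone among the alternatives run. The share of all genes that DESeq2 called is not reported here, so these calls are not read as results about the members.

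For PRDX5 the estimates had opposite signs between screens for imatinib, at -0.50 in dT and 1.15 in Bio, with 95% intervals of -1.55 to 0.55 and -1.19 to 3.48. With trametinib its CPM was higher in 3 of 3 runs of both screens, but the fitted changes of 0.30 (SE 0.56) and 1.36 (SE 1.11) had adjusted p-values of 0.923 and 0.734 by edgeR. PRDX4, PRDX6 and TXN, which were tested in 1 screen each, had adjusted p-values of 0.652 to 0.998 by edgeR for the 3 drugs. PRDX1, PRDX2, SOD1 and GPX1 did not pass edgeR's filter on low counts for a drug term in either screen. DESeq2 was run without that filter and called PRDX2 for imatinib and for trametinib in Bio, where 3 of 44 libraries counted it, at 267, 1 and 2 counts. The share of all genes that DESeq2 called in Bio is not reported here.

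**Figure D4:**
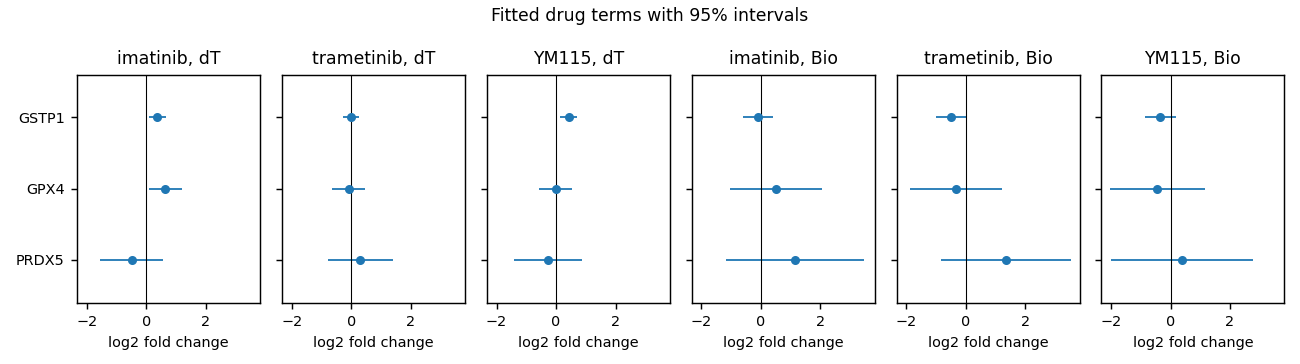
Fitted log2 fold changes (horizontal axis) of GSTP1, GPX4 and PRDX5 for each drug in each screen, as points with 95% intervals. The intervals of GSTP1 in dT are the narrowest, the one for YM115 runs from 0.14 to 0.70, and the intervals of PRDX5 in Bio span more than 4 log2 units.

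The study also asked whether it matters through which of the 2 sources a drug enters the droplet. First-listed against second-listed drugs were compared with a joint edgeR quasi-likelihood test on 3 degrees of freedom. In dT, 0 of 7 members tested were called, against 13.9% of all genes, and 2 (TXN and PRDX2) were below an unadjusted p of 0.05 by edgeR. Of all genes tested, 1293 of 4492 were below that level. In Bio, 2 of 6 were called against 18.4% of all genes, namely PRDX1 (adjusted p = 0.00911 by edgeR) and PRDX4 (adjusted p = 0.0148 by edgeR). PRDX1 was counted in 4 of the 12 Bio libraries with YM115 listed first and in 0 of 12 with YM115 listed second, with counts of 60, 1, 18 and 17. PRDX4 was counted in 0 of 9 Bio libraries with imatinib listed first and in 5 of 9 with imatinib listed second, where its counts were 128, 1, 2, 765 and 3. Both calls thus rest on a few libraries, and 0 members were called without the replicate block or when any 1 run was left out. Omission of run 2 or run 3 left 0 genes of any kind called, against 389 with all runs. For listed position GSTP1 had adjusted p-values of 0.576 (dT) and 0.405 (Bio) and GPX4 of 0.619 (dT) and 0.879 (Bio) by edgeR.

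Departure of pairs from the sum of the single drug terms was tested with the 3 drug products. In dT, 1 of 8 members was called, against 9.77% of all genes, and in Bio 0 of 7, against 14%, where 3 (PRDX1, PRDX6 and TXN) were below an unadjusted p of 0.05 by edgeR. Of all genes tested in Bio, 1214 of 3429 were below that level. The member called in dT was TXN (adjusted p = 0.0422 by edgeR), which was counted in 12 dT libraries. All 3 Trametinib_YM115 libraries counted it, at 3, 6 and 2 counts, and 2 Imatinib_YM115 libraries did, at 24 and 23 counts. In the reversed order, YM115_Trametinib had 0, 0 and 0 counts and YM115_Imatinib had 6, 0 and 0. The largest dT counts were 44 in Trametinib_Trametinib and 39 in Imatinib_Imatinib, both of run 3. In the dT DMSO_DMSO libraries it had 23, 1 and 0 counts. The call was lost when any 1 run was left out, as were those of all 612 genes called. GSTP1 and GPX4 had adjusted p-values of 0.513 and 0.989 in dT and 0.851 and 0.788 in Bio by edgeR.

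Whether the drug terms differed between the screens was tested in 1 fit of the 92 passing libraries. Of 6 members tested, 0 were called, against 26.2% of all genes. PRDX4 came nearest (adjusted p = 0.0584 by edgeR) and was the 1 member below an unadjusted p of 0.05, and GSTP1, PRDX5 and GPX4 had adjusted p-values of 0.405, 0.609 and 1 by edgeR. Of all genes tested, 1841 of 4705 were below an unadjusted p of 0.05 by edgeR. The different signs of the YM115 estimate for GSTP1 in the 2 screens were therefore not separated by this test.

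The separate controls and the in-screen DMSO_DMSO libraries both held solvent alone. GSTP1 stood at 3469, 1130 and 583 CPM in the separate Bio controls, all below the 8473 to 8933 CPM of the in-screen libraries. In dT it was 3809, 686 and 2107 CPM in the separate controls, which overlaps the in-screen values. GPX4 in the separate dT controls was 318, 300 and 351 CPM, all below the lowest in-screen solvent value of 407 CPM. In Bio GPX4 overlapped, at 140, 313 and 482 CPM in the separate controls and 3584, 0 and 3068 CPM in-screen. PRDX5 overlapped in both screens. Of the 7 sparse members, PRDX1, PRDX6 and SOD1 in dT and PRDX1, PRDX4 and PRDX6 in Bio had a higher listed CPM in every separate control than in every in-screen solvent library. PRDX6 had 36, 21 and 11 counts in the separate dT controls and 0 in the 3 in-screen libraries. The mean of these controls, 81.3 CPM, was 4.98-fold the 16.3 CPM of a floor of 3 counts per in-screen library. The run 3 control stood at 24 CPM. This floor covers counting error only and leaves out the spread between runs. SOD1 had 11, 36 and 41 counts in the separate dT controls and 0, 1 and 0 counts in the in-screen libraries. PRDX1 had 18, 1 and 4 counts in the separate dT controls and 5, 2 and 1 in the separate Bio controls, and 0 in every in-screen solvent library. Its run 2 and 3 controls, at 3.9 and 8.72 CPM in dT and 22.4 and 20.1 CPM in Bio, lie within the limits for 0 counts. Those limits are 16.3 and 27.7 CPM, so a higher level of PRDX1 is not shown for these controls. PRDX4 had 8, 4 and 4 counts in the separate Bio controls and 0 in the in-screen ones, while in dT it had 21, 0 and 32 counts against 0, 1 and 0, which overlap. TXN overlapped in dT, at 180, 39 and 69.7 CPM in the separate controls and 127.5, 5.7 and 0 CPM in-screen, and in Bio it had 6, 0 and 1 counts against 0. PRDX2 in both screens and SOD1 in Bio were counted in 1 of 3 separate controls and in 0 in-screen solvent libraries. GPX1 had 0 counts in all 12 solvent libraries.

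None of these solvent differences passed across all genes. In dT, 0 of 8 members were called, where 0.116% of all genes were, and in Bio 0 of 7, where 0.0432% were (edgeR's quasi-likelihood test). Genes at an unadjusted p under 0.05 numbered 1117 of 6917 for dT and 1125 of 4631 for Bio. Among the members, PRDX6 and SOD1 in dT and GSTP1 and PRDX1 in Bio were below that level by edgeR. The log2 fold change of GSTP1 was -0.40 in dT (SE 0.42) and -2.42 in Bio (SE 1.15). The median over all genes tested was 3.39 in dT and 5.63 in Bio, so most genes had higher estimates in the separate controls. The in-screen DMSO_DMSO libraries detected 2639 to 2967 genes in dT and 1071 to 1538 in Bio, fewer than were tested. Where their counts were 0, the estimate moves with the small count that edgeR adds before taking logs. These medians are thus no measure of a shift for GSTP1, which had counts in every solvent library. Mitochondrial counts and detected genes differed between the same libraries, as given above, and their part was not tested.

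**Figure D5:**
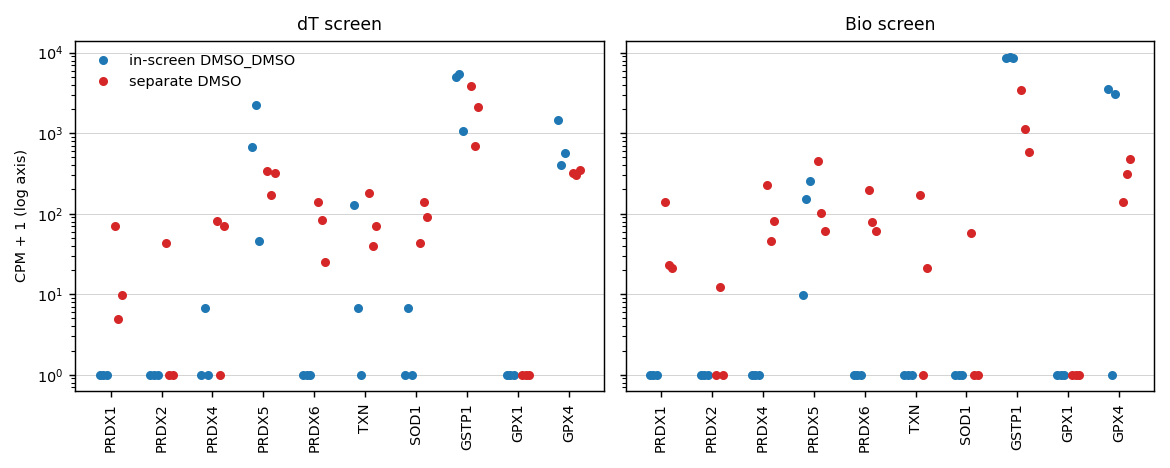
CPM plus 1 on a log axis for the 10 members in the 3 in-screen DMSO_DMSO libraries (blue) and the 3 separate controls (red) of the dT (left) and Bio (right) screens, with points at the bottom having no counts. PRDX1, PRDX6 and SOD1 are at or near 0 in the in-screen solvent libraries and counted in the separate dT controls, and GSTP1 in Bio lies lower in the separate controls.

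A wider list of 75 genes of the thioredoxin, glutathione, disulfide exchange and NADPH supply systems was read from the same fits, of which 66 were in the table. Of these, 16 were counted in 50% or more of the dT libraries, among them TXN2 (mitochondrial thioredoxin, 43 of 48), GSR (glutathione reductase, 38 of 48) and P4HB (protein disulfide isomerase, 47 of 48). In Bio 4 were, among them TXN2, SLC3A2 and P4HB. The separate controls counted 47 (dT) and 30 (Bio) of the 66 in at least 2 of 3 libraries. PRDX3, the mitochondrial peroxiredoxin that is no member, was counted in 3 dT libraries and 1 Bio library.

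Of 30 genes of that list tested in dT, 1 was called for imatinib (CAT, catalase, higher), 2 for trametinib (CCS, the copper chaperone of SOD1, and GLRX3, a glutaredoxin, both higher) and 0 for YM115, where 8 were below an unadjusted p of 0.05 by edgeR. The shares of all genes called were 2.88%, 1.37% and 2.62%. For YM115, 561 of all 3930 genes were below an unadjusted p of 0.05 by edgeR. The median log2 fold change of the list was 0.22, 0.42 and 0.33 for the 3 drugs. In Bio, 19 were tested, with 1 called for imatinib (PARK7), 1 for trametinib (TXNRD2) and 3 for YM115 (NQO1, SESN2 and TXNRD2), all higher, against 2.34%, 1.94% and 2.74% of all genes. Of these genes CAT and CCS were tested for a drug in dT only. TXNRD2, a mitochondrial thioredoxin reductase, had dT estimates of the opposite sign, at -1.48 for trametinib and -2.66 for YM115, neither of which was called, and its drug terms differed between the screens (adjusted p = 0.000156 by edgeR). CAT, CCS and GLRX3 were counted in 13, 15 and 15 of 48 dT libraries, and the Bio genes in 10 to 14 of 44. Their fitted log2 fold changes of 4.19 to 8.17 move with the small count that edgeR adds before taking logs, and are not given as fold changes. For listed position, 4 of 30 genes of the list were called in dT (13.9% of all genes) and 4 of 21 in Bio (18.4%). For drug products 4 of 38 (9.77%) and 9 of 29 (14%) were called, and for drug by screen 6 of 31 (26.2%). In the solvent comparisons 0 of 39 in dT (0.116%) and 0 of 31 in Bio (0.0432%) were called, with 8 and 9 below an unadjusted p of 0.05 by edgeR. Of all genes tested there, 1117 of 6917 in dT and 1125 of 4631 in Bio were below that level.

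The genes whose levels moved most like those of GSTP1 over the 92 passing libraries were the metallothionein locus MT1HL1 (Pearson r = 0.44), the pseudogene RPLP0P10 (r = 0.37) and the glycolytic enzyme TPI1 (r = 0.37). This was read from log2 CPM with each screen's mean subtracted, among 1434 genes counted in 50% or more of the libraries. GSTP1 itself had r = 0.21 with the log2 depth of the library. For GPX4 the 3 most alike were TMEM183A (r = 0.36), SON (r = 0.35) and MAP2K2 (r = 0.32). Among the members, r was 0.12 for PRDX5 and GSTP1, -0.18 for PRDX5 and GPX4 and -0.0245 for GSTP1 and GPX4. The points share library, depth and run, and the values are descriptions of these libraries.

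Promoter sequences from RefSeq (GRCh38.p14, 250 bases before to 50 after the gene start) were matched for 7 of the 10 members, as 10 promoters. They were searched on both strands for TGACNNNGC, the core of the antioxidant response element to which NRF2 binds. GSTP1, which was counted in all passing libraries, held the 1 match, and 4687 of 35116 promoters (13.3%) hold it. The match, in capitals here, starts 66 bases before the RefSeq start used for that promoter. GENCODE release 29 places the start of GSTP1 farther upstream, so that the match lies inside the gene in that annotation.
GSTP1 promoter: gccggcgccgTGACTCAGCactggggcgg
It lies at chr11:67583746-67583754 on the plus strand, and the presence of these letters says nothing about binding in these cells.

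GSTP1 lies at chr11:67583595-67586656 and PRDX5 at chr11:64318088-64321811, both on the plus strand of GRCh38, and GPX4 at chr19:1103926-1106791 on the plus strand. None of the 3 overlaps another annotated gene. PRDX1 overlaps MMACHC on the opposite strand. PRDX2 overlaps HOOK2 on the same strand and AC018761.2 on the opposite strand. SOD1 overlaps RF01241 on the same strand and AP000254.1 on the opposite strand. Whether counting used strand is not given in the sources used here, so reads of the pairs on opposite strands may not be told apart. Strand would not separate the pairs on the same strand. Processed pseudogenes could divide reads with their parent genes, and 8 pseudogenes of the members had counts, the most in GSTP1P1 with 68 reads over 44 libraries against 159147 reads of GSTP1. GPX1P1 had 7 reads, all in 1 library, against 1 read of GPX1. GPX1 is annotated as a polymorphic pseudogene in GENCODE release 29.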

How the data were processed

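Counts were analysed as deposited: the authors supplied unnormalised whole-number read counts for 24965 Ensembl genes and 102 libraries. The submitters' processing notes name STAR 2.4.2a and GRCh38. Annotation, strand setting and any collapsing of molecular identifiers are not given in the sources used here. A symbol was assigned to 24539 genes from a name table, the table held 0 entries without a gene, and 0 columns belonged to other samples.

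Samples were grouped by screen, ordered drug pair and run from the labels. The members, the wider redox list and the tests were chosen with earlier results of these data known, and all 10 members were named in every comparison whether or not they passed. CPM was computed from total counts. Tests were edgeR 4.0.16 quasi-likelihood fits in R 4.3.3 (TMM, filterByExpr) over all genes of a screen, two-sided, with Benjamini-Hochberg adjustment and a threshold of 0.05. Run was a block, because the study corrects for replicate and its design text counts 6 raw files over the 3 replicates of each of the 2 screens. The mean correlation of residuals was 0.0243 between dT libraries of 1 run and -0.0121 between runs, and 0.0281 and -0.014 in Bio. Solvent controls were compared with no library filter, over the 51 libraries of each screen. Standard errors were derived from the fold change and its F statistic and are printed for widely counted genes. The 102 replicate pairs compared held 0 identical libraries, and no pair had a chi-square per degree of freedom under 5.62. Alternatives were DESeq2 1.42.0, other size factors, filters, library sets, depth as a covariate and omission of each run. Individual values of some genes on the marker and wider redox lists are not reported here. The edgeR steps were tested on simulated data. The tools also included python 3.11.15, numpy 2.4.6, pandas 2.3.3, scipy 1.17.1 and matplotlib 3.10.9.

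Depth per library is given with the results. Reads were not collapsed by molecular identifiers as far as is stated, so limits from counts cover counting error only. MseI sites were counted in GENCODE release 29 transcripts of GRCh38 (869 to 1751 bases for the members). The coordinates of the member genes come from that annotation, and the table's identifiers carry no coordinates of their own. The deposited sheet of sample annotations was not used.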

Additional observations from a re-analysis of the deposited data

How the results depend on the processing

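Recomputing the counts of members called left 90 unchanged within 1.5 times and moved 26, and of the recomputed log2 fold changes 205 kept sign and side of the threshold, 3 passed it and 32 changed sign. All 32 had adjusted p-values of at least 0.874. Keeping all libraries altered nothing in dT, where all 48 had passed.

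With DESeq2, 2 members were called for imatinib in dT (GPX4 and GSTP1), 1 for YM115 in dT (GSTP1), 1 for imatinib and 1 for trametinib in Bio (PRDX2 in both, counted in 3 of 44 libraries with 267 reads in 1). DESeq2 called 2160, 2121 and 2188 genes for imatinib, trametinib and YM115 in dT, against 113, 54 and 103 by edgeR. The shares of all genes that DESeq2 called in dT and Bio are not reported here. Its calls are therefore not read as results about the members. Over the alternatives the adjusted p ranged from 0.0305 to 0.737 for GPX4 and imatinib, from 0.0123 to 0.776 for GSTP1 and imatinib and from 0.0371 to 0.595 for GSTP1 and YM115 in dT. With YM115 in Bio, 1 member (PRDX4) was called without the filter on low counts and 1 with depth as a covariate. The main fit called 2.74% of all genes for YM115 in Bio, and the shares under these 2 alternatives are not reported here.

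For listed position 1 member (TXN) was called in dT with depth as a covariate. In Bio the number was 1 with depth as a covariate (PRDX1), 0 among genes counted in at least 50% of the libraries, 0 without the replicate block and 0 to 0 when 1 run was left out, where omission of run 2 or 3 left 0 genes called of any kind. For drug products in dT it was 0 without the filter, 0 among genes counted in at least 50% of libraries and 0 to 0 with 1 run left out, where again 0 genes of any kind were called. In Bio it was 2 without the replicate block and 2 with all libraries (PRDX1 and TXN in both). For drug by screen it was 1 with DESeq2 size factors, 2 without the filter, 1 without the replicate block, 1 with all libraries, 2 with depth as a covariate and 0 to 1 with 1 run left out, mostly PRDX4. The cause was not tested. The main fits called 13.9% (dT) and 18.4% (Bio) of all genes for listed position. They called 9.77% and 14% for drug products and 26.2% for drug by screen. Shares of all genes under most of these alternatives are not reported here, so the numbers of members called are not read as results about the members.

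Log2 fold changes that changed sign were as follows. GSTP1 with trametinib in dT was -0.078 with DESeq2 size factors, -0.018 among genes counted in at least 50% of libraries, -0.0087 without the replicate block, -0.055 with depth as a covariate and -0.11 to 0.055 with 1 run left out. GSTP1 with imatinib in Bio was 0.077 without the filter, 0.026 without the replicate block, 0.26 with DESeq2 and -0.15 to 0.19 with 1 run left out, and with YM115 in Bio it was -0.48 to 0.13. GPX4 with YM115 in dT was 0.063 without the filter, 0.032 with DESeq2 and -0.17 to 0.0079 with 1 run left out (1.49e-05 without run 1), and with trametinib in Bio it was 0.016 with all libraries and -0.44 to 0.099 with 1 run left out. PRDX5 was 0.045 (imatinib, dT), 0.071 (YM115, dT) and -0.28 (YM115, Bio) with depth as a covariate, -0.068 (YM115, Bio) with DESeq2 size factors, and with 1 run left out -0.082 to 0.80 (trametinib, dT), -0.52 to 0.21 (YM115, dT) and -0.74 to 2.08 (YM115, Bio). PRDX6 in dT was 0.50 (imatinib) without the replicate block and -0.91 (trametinib) with depth as a covariate, and with 1 run left out -2.52 to 0.96 (imatinib) and -0.74 to 2.20 (trametinib). PRDX4 in dT was 0.46 (YM115) without the replicate block, and -1.41 to 2.70 (imatinib) and -1.51 to 1.40 (YM115) with 1 run left out. TXN with trametinib in Bio was 0.016 with all libraries.

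Depth and sparse counts limit these results. Leaving the replicate block out lowered the genes called to 12 (imatinib), 9 (trametinib) and 23 (YM115) in dT and, in Bio, from 41, 34 and 48 to 5, 5 and 12, and changed no member's call for a drug. Same-run libraries shared little, with 1.39% (dT) and 4.98% (Bio) of same-run pairs correlating above 0.1. In Bio, Imatinib_Imatinib had 0 passing libraries, so 2 portions of imatinib did not enter the main drug fits there. The drug terms counted a drug as present or absent, so 1 and 2 portions were not compared in either screen.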
